A study of Mus musculus with 4 samples.

Results

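The stem cell-like cells described here were picked from 4 single-cell RNA libraries of sorted mouse bone marrow by the transcripts that each cell carried. A cell was taken when it had at least 1 unique molecular identifier (UMI, the count of 1 captured transcript) in at least 2 of 5 stem cell genes, Mecom, Procr, Fgd5, Pdzk1ip1 and Slamf1, and 0 UMIs of Flt3, Elane and Cd79a. Flt3 marks multipotent and lymphoid progenitors, Elane granulocyte-monocyte progenitors and Cd79a B-lineage cells. The rule took 5293 of 37344 kept cells, namely 890 of 8055 in control, 858 of 9865 in Ikk2CA, 2536 of 14156 in Jak2V617F and 1009 of 5268 in the double mutant. Because the cells were chosen on these 8 genes, the levels of those genes are a description of the choice.

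All cells came from the LSK gate (lineage-negative, Sca-1-positive, Kit-positive), which holds blood stem cells and early progenitors. Every library, the control included, carried Vav1-iCre, a recombinase driven in blood-forming cells. The control genotype was Vav1-iCre/+ alone. The Ikk2CA genotype added Ikk2-CA flox/+ (R26StopFLikk2ca), a constitutively active kinase expressed from the Rosa26 locus, and the Jak2V617F genotype added Jak2 V617F flox/+. The double mutant carried both alleles. Each genotype was 1 library of marrow pooled from 5 mice aged 8 to 12 weeks, and the series' design text also names an NF-κB-responsive EGFP reporter in the crosses. The spread between mice could therefore not be measured, no p-value is given, and the 95% intervals cover counting error only.

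Blood stem cells are a rare, mostly quiescent population that renews itself and feeds all blood lineages. They are held in that state by transcription factors such as HLF, MECOM and MEIS1. JAK2 is the kinase that relays signals from several blood cytokine receptors. Some stem cells carry platelet-lineage transcripts such as Vwf and are primed toward megakaryocytes, the cells that make platelets. IKK2 activates NF-κB by phosphorylating its inhibitor IκBα, and the V617F form of JAK2 signals without cytokine and is known from myeloproliferative disease.

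Libraries differed in depth and in Xist. The median stem cell-like cell held 9577.5 UMIs in control, 13613.5 in Ikk2CA, 10009 in Jak2V617F and 22088 in the double mutant, and the sums behind the levels below were 10158439, 14081578, 29863741 and 24470254 UMIs. Xist is transcribed in female cells, and cells without a UMI of it made up 38.5%, 73.9%, 99.6% and 67.7% of the stem cell-like cells in the same order. With 1 pool per genotype, genotype can therefore not be told apart from this difference in Xist between the pools. Of all deposited barcodes, 195 occurred in more than 1 library, and 3 were taken by the rule in more than 1. Depth bears on a rule that asks for detected transcripts, so its yield was read again after each cell had been thinned to a fixed number of UMIs.

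The stem cell-like share of kept cells was 11.05% in control (exact binomial interval 10.4 to 11.8%), 8.70% in Ikk2CA (8.15 to 9.27%), 17.9% in Jak2V617F (17.3 to 18.6%) and 19.2% in the double mutant (18.1 to 20.2%). Thinned to 5000 UMIs, with 838, 405, 1361 and 146 shallower cells left out, the shares were 8.31%, 4.04%, 10.7% and 6.91%. Of the 600, 382, 1371 and 354 cells taken at 5000 UMIs, 443, 301, 1095 and 256 were also taken at full depth. The others had UMIs of Flt3, Elane or Cd79a that thinning removed. Thinned to 10000 UMIs the shares were 7.94%, 6.04%, 13.1% and 12.2%, with 3620, 1431, 6263 and 323 shallower cells left out. The shares at the 3 depths are therefore over different sets of cells, and the part left out differs between libraries. Ikk2CA had the lowest share and Jak2V617F a higher share than control at all 3 depths. The double mutant stood above control at full depth and at 10000 UMIs, and below it at 5000 UMIs, so its order against control could not be told apart from depth.

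**Figure D1:**
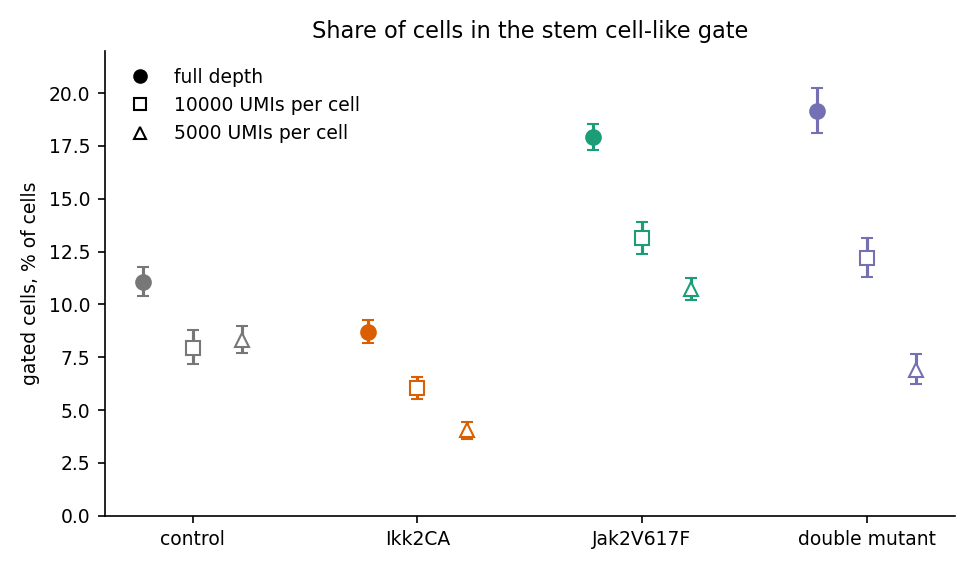
Share of kept cells that met the stem cell-like rule in each library (vertical axis, percent), at full depth (filled circles), at 10000 UMIs per cell (open squares) and at 5000 UMIs per cell (open triangles), with 95% exact binomial intervals. Cells shallower than a thinned depth are left out at that depth. The double mutant moves from 19.2% to 6.91%, the widest change with depth among the 4 libraries.

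The genes used to choose the cells were measured at these levels, as CPM, the UMIs of a gene over all UMIs of the summed cells, scaled to the same total in each library. Pdzk1ip1 stood at 139 CPM in control, 113 in Ikk2CA, 115 in Jak2V617F and 68.9 in the double mutant, and Mecom at 112, 75.5, 109 and 70.5 CPM. Procr stood at 67.1, 43.6, 56.1 and 30.04 CPM, Slamf1 at 18.01, 17.1, 29.0 and 21.7 CPM and Fgd5 at 13.1, 5.68, 12.4 and 4.25 CPM. Most chosen cells had just the 2 markers that the rule asks for: 601, 596, 1664 and 602 cells. A further 711, 1022, 2035 and 629 cells had 1 marker and none of the excluded genes and lay just outside.

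The label was checked on genes that the rule did not use. Of 17 measured stem cell transcription factor genes, 15 were higher in the stem cell-like cells than in the other kept cells of the same library in all 4 libraries. Of 26 stem cell surface and endothelial-like genes, 22 were higher in all 4. Megakaryocyte genes were higher as well, 12 of 13 in all 4 libraries, with median log2 ratios over the other cells of 1.10 in control, 2.28 in Ikk2CA, 1.247 in Jak2V617F and 1.77 in the double mutant. The medians of the stem cell transcription factors were 0.90, 1.41, 0.67 and 0.86. All 13 measured lymphoid priming genes, all 10 B cell genes and 17 of 18 granulocyte-monocyte genes were lower in all 4. The genes with the highest ratio over the other cells in every library were led by Cavin2, a component of caveolae, Tgm2, a transglutaminase, Clec1a, a lectin receptor, Mmrn1, a platelet and endothelial protein, and Vwf. Cells picked on some transcripts share others with them, so these counts describe the population and do not test it. Of the 10 stromal genes, between 3 and 5 were at 0 UMIs in each library, and their summed level was between 2.08 and 5.02 CPM.

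Cells with more of the 5 markers also carried more of other stem cell transcripts at matched depth. Among cells thinned to 5000 UMIs without the excluded genes, Hlf in control was at 188 CPM with no marker, 338 with 1, 475 with 2 and 543 with 3 or more. In Ikk2CA the same steps were 48.5, 115, 227 and 377 CPM, in Jak2V617F 167, 271, 334 and 438 CPM, and in the double mutant 69.95, 143, 208 and 299 CPM. Cd48, which is low on stem cells, ran the other way in each library, from 161 to 14.3 CPM in control and from 222 to 49.3 CPM in the double mutant between the lowest and highest steps. Hlf was below control at each of the 4 steps in all 3 mutants, and lower in Ikk2CA and the double mutant than in Jak2V617F.

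**Figure D2:**
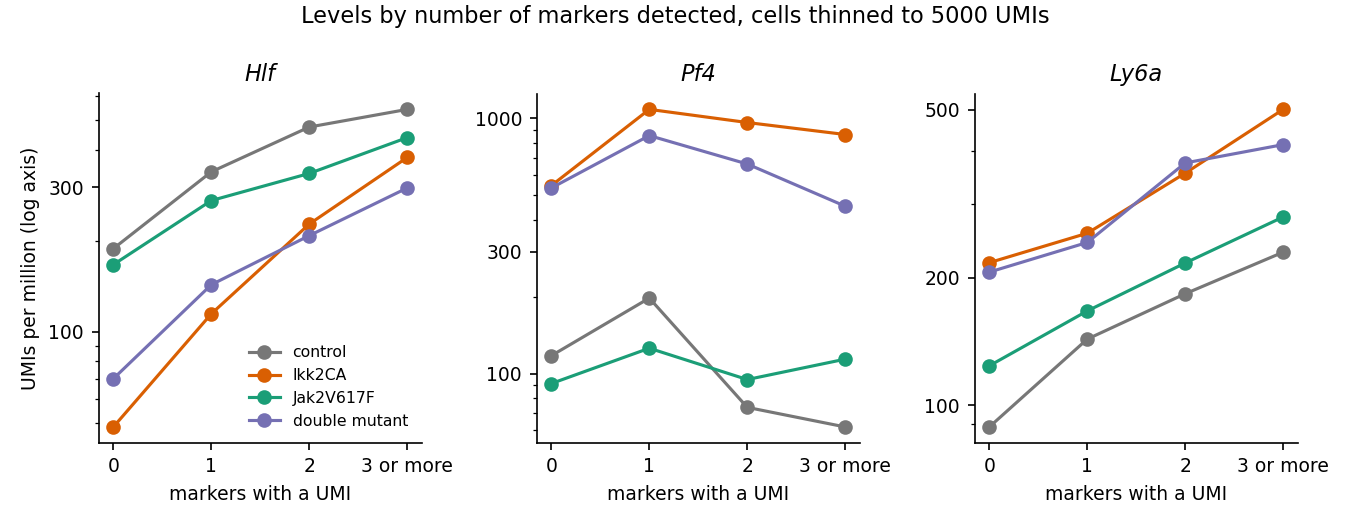
Levels of Hlf, Pf4 and Ly6a (CPM, log axes) in cells thinned to 5000 UMIs and split by how many of the 5 stem cell markers had a UMI; lines join the groups of 1 library. Hlf climbs with the number of markers in every library, and Pf4 in Ikk2CA and the double mutant lies above 450 CPM at each step, against at most 198 CPM in control and Jak2V617F.

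Levels were then compared between genotypes within the stem cell-like cells. A gene with at least 10 CPM in either sum was compared and called when it was at least 2 times or at most 0.5 times as high. In Ikk2CA against control, 143 of 8599 genes (1.66%) were higher by this rule and 154 (1.79%) lower. In Jak2V617F against control, 37 of 8625 (0.429%) were higher and 30 (0.348%) lower. In the double mutant against control, 96 of 8529 (1.13%) were higher and 289 (3.39%) lower. The double mutant against Ikk2CA gave 19 (0.237%) and 82 (1.02%) of 8025, and against Jak2V617F 62 (0.737%) and 104 (1.24%) of 8413. Comparisons that share a library are not independent of each other.

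Part of the split between higher and lower calls came with the scaling. The median gene had a log2 ratio of −0.18 in Ikk2CA, −0.01 in Jak2V617F and −0.23 in the double mutant against control, and −0.04 and −0.21 in the double mutant against Ikk2CA and Jak2V617F. Taken relative to that median, the higher and lower counts were 196 and 82 in Ikk2CA, 37 and 29 in Jak2V617F, and 167 and 113 in the double mutant. Against Ikk2CA and Jak2V617F the double mutant gave 20 and 79, and 80 and 42, on that scale. Of the genes called higher in the stem cell-like cells, 109 of 143, 23 of 37 and 61 of 96 were also at least 2 times as high in the other kept cells of the same mutant.

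Stem cell transcription factor genes were mostly below control in all 3 mutants: 14 of 17 in Ikk2CA, 13 in Jak2V617F and all 17 in the double mutant. Hlf (mm10 chr11:90336535-90390917), a regulator of stem cell quiescence, stood at 348 CPM in control, 126 in Ikk2CA, 266 in Jak2V617F and 106 in the double mutant. Both libraries with the Ikk2CA allele were lowest, at 0.363 times control (counting interval 0.343 to 0.384) and 0.304 times (0.289 to 0.320). Among cells with at least 5000 UMIs, 74.3%, 42.4%, 63.4% and 38.5% of stem cell-like cells had an Hlf UMI after thinning, against 9.56%, 2.24%, 12.7% and 1.92% of B-lineage cells, a type that should lack it. With the rule itself read at 5000 UMIs, Hlf was at 444, 222, 311 and 179 CPM.

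The other members of that list were nearer to control. In Ikk2CA 3 of the 17 measured members were at most 0.5 times control and none was at least 2 times, with a list median log2 ratio of −0.40. In Jak2V617F 1 was lower by this rule and the median was −0.29, and in the double mutant 3 were lower and the median was −0.67. Above the median gene of each comparison stood 6, 4 and 2 of the 17. Mycn, a growth regulator, was at 76.5, 32.8, 62.7 and 51.8 CPM in control, Ikk2CA, Jak2V617F and double mutant, and Nfia, a nuclear factor, at 47.5, 20.03, 33.7 and 17.0 CPM. Meis1, a partner of HOX proteins, was at 276, 198, 253 and 173 CPM. Gata2, a factor that stem and megakaryocyte cells share, was at 130.4, 122, 151 and 99.3 CPM.

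Surface genes split in both directions. Emcn, a sialomucin of stem cells and endothelium, stood at 31.9 CPM in control, 9.73 in Ikk2CA, 13.9 in Jak2V617F and 12.1 in the double mutant, so all 3 mutants were below control. Cd34, a sialomucin of progenitors, was at 309.9, 157, 223 and 162 CPM. Kit, the stem cell factor receptor used for the sort, was at 206, 150.4, 207 and 112 CPM. Ly6a, which encodes Sca-1 and was also used for the sort, ran the other way at 132, 218, 164 and 229.9 CPM. Thy1, another surface antigen, was at 4.23, 11.6, 6.60 and 15.8 CPM. Of 26 measured members, 2 were higher and 3 lower by the 2-fold rule in Ikk2CA, 0 and 1 in Jak2V617F, and 2 and 5 in the double mutant.

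**Figure D3:**
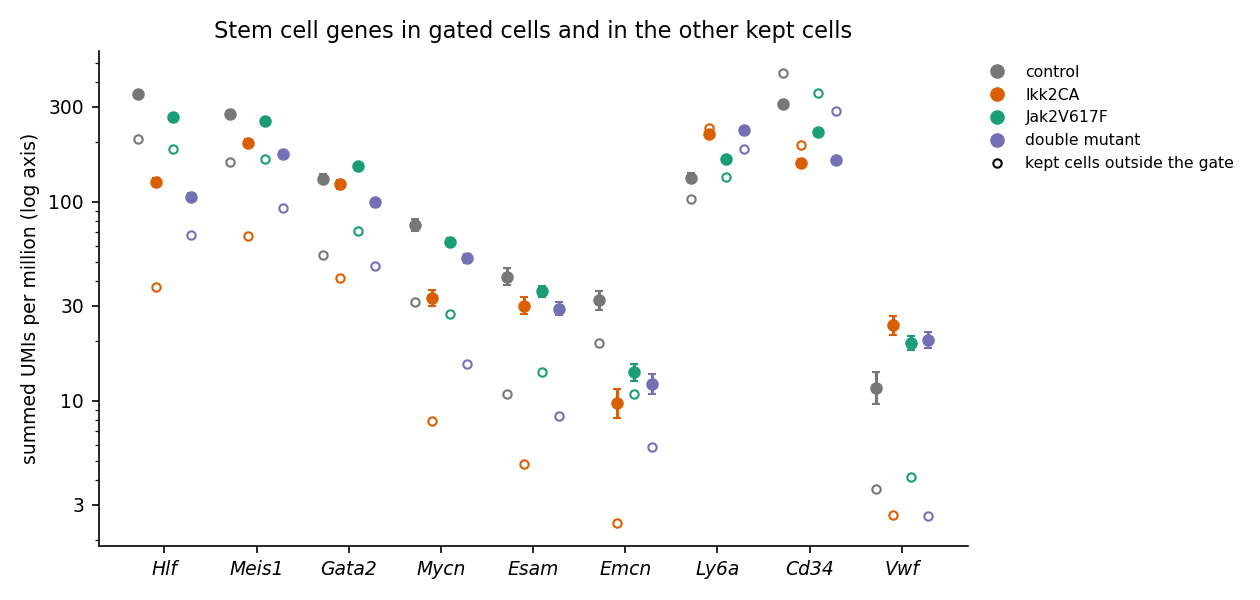
Levels of 9 stem cell genes (CPM, log axis) in the stem cell-like cells (filled, with 95% exact Poisson intervals) and in the other kept cells (open) of each library. Hlf, Cd34 and Emcn lie below control in all 3 mutants, whereas Ly6a and Vwf lie above it.

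Several NF-κB subunit and feedback genes were higher in both libraries with the Ikk2CA allele. Relb, a subunit of the alternative NF-κB dimer, stood at 6.89 CPM in control, 46.2 in Ikk2CA, 6.73 in Jak2V617F and 33.1 in the double mutant. Nfkbia, which encodes the inhibitor IκBα, stood at 88.9, 437, 94.1 and 298 CPM, and Nfkb2, the p100 subunit, at 11.4, 35.01, 8.91 and 23.1 CPM. In all 3 genes the 2 libraries with the allele were the highest and Jak2V617F lay near control. The log2 ratios of Relb were 2.74 in Ikk2CA, −0.03 in Jak2V617F and 2.27 in the double mutant, and those of Nfkbia 2.30, 0.08 and 1.74. Without the stem cell-like cells high in megakaryocyte genes described below, Relb was at 2.88 and 2.26 in Ikk2CA and the double mutant.

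The promoters of 5 genes high in both libraries with the allele are shown, 4 picked because they hold a κB-type motif and Pdcd1lg2 as one that holds none. Nfkb2 has 3 windows in the table and the first is given. Each is the RefSeq window on GRCm38.p6 (the mm10 assembly) from 250 bases before to 50 after the gene start, on the gene's strand, and capitals mark GGGNNNTTCC, a κB-type motif, on either strand.
Nfkbia, chr12:55492598-55492897, minus strand: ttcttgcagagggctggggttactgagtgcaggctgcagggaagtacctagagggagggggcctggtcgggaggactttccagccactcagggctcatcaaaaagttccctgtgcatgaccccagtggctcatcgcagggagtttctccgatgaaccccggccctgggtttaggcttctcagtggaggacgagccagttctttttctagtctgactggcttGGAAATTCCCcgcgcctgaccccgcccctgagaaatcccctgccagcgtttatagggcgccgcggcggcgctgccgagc
Nfkb2, chr19:46304487-46304786, plus strand: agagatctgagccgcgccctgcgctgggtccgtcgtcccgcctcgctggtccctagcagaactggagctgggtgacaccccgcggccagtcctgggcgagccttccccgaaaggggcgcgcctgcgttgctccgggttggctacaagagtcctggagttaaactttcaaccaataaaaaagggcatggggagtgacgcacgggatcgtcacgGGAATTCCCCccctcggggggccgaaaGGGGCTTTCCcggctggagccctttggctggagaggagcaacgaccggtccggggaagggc
Ltb, chr17:35194257-35194556, plus strand: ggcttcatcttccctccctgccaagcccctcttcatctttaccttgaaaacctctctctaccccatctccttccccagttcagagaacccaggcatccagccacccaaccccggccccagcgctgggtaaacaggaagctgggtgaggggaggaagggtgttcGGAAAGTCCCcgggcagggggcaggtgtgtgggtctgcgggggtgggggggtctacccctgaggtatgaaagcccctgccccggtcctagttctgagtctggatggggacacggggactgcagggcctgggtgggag
Ehd3, chr17:73804591-73804890, plus strand: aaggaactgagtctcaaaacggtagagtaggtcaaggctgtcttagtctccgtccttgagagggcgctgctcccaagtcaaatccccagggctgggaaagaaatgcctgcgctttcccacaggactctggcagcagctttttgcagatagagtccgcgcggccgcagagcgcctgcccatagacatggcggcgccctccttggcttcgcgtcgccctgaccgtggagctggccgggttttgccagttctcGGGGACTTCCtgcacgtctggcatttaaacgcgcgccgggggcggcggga
Pdcd1lg2, chr19:29410669-29410968, plus strand: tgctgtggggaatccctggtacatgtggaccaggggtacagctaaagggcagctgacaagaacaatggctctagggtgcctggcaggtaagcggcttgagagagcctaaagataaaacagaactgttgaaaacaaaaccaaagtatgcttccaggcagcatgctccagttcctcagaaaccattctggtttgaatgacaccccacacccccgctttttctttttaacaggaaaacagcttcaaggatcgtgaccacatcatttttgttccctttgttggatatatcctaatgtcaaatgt
Of the subunit and feedback list, 12 genes had a window and 7 of them (58.3%) held the motif in at least 1, with overlapping matches counted. The target effector list gave 7 of 24 genes (29.2%), against 1704 of 27025 genes (6.31%) in the whole table. These lists were made of genes known to respond to NF-κB, and a match is a run of letters, not a measured binding site.

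Of the 14 measured subunit and feedback genes, 6 were at least 2 times control in Ikk2CA, 0 in Jak2V617F and 4 in the double mutant, with medians of 0.67, 0.00 and 0.49 and none at or below 0.5 times. Above control at all were 11, 7 and 8 of them. Tnfaip3, which encodes the feedback protein A20, stood at 24.9 CPM in Ikk2CA and 8.13 CPM in the double mutant, against 5.81 in control and 6.93 in Jak2V617F. Nfkb1 and Rela, the subunits of the classical dimer, were near control throughout, at 93.5, 89.3, 107 and 90.6 CPM and at 41.3, 37.4, 45.0 and 36.0 CPM. In 13 of the 14 genes the double mutant was below Ikk2CA, with a median log2 ratio of −0.38 between those libraries and 2 genes at or below 0.5 times.

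Some NF-κB target effectors were also higher in the libraries with the Ikk2CA allele. Ltb, the cytokine lymphotoxin β, stood at 157 CPM in control, 587 in Ikk2CA, 109 in Jak2V617F and 373 in the double mutant. Ehd3, an endocytic trafficking gene, was at 6.30, 58.9, 6.70 and 34.8 CPM, and Pdcd1lg2, the checkpoint ligand PD-L2, at 7.29, 40.5, 7.60 and 31.7 CPM. Serpina3f, a protease inhibitor from a cluster of closely related genes whose reads could be split between copies, was at 4.43, 26.0, 11.9 and 36.7 CPM and was highest in the double mutant. Ccl5, a chemokine, was at 2.66, 36.0, 10.2 and 22.5 CPM, with 44.4% and 62.0% of its UMIs in the 10 richest cells of Ikk2CA and the double mutant. Of 21 measured effectors, 8 were at least 2 times control in Ikk2CA, 2 in Jak2V617F and 8 in the double mutant, where the chemokines Ccl3 and Ccl4 were at most 0.5 times, and the medians were 0.72, 0.00 and 0.09.

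Class II antigen presentation genes led another list, which shares Cd74 with the effectors. Cd74, the class II invariant chain, stood at 68.6 CPM in control, 408 in Ikk2CA, 102 in Jak2V617F and 286 in the double mutant, and H2-Eb1, a class II chain, at 37.8, 168, 69.8 and 112 CPM. In each, all 3 mutants were above control and Ikk2CA was highest. Of 16 measured members, 4 were at least 2 times control in Ikk2CA and the same number in the double mutant, none in Jak2V617F, and none was at most 0.5 times.

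Immediate early genes, which respond within minutes to signals and to handling, separated Ikk2CA and Jak2V617F from the other libraries. Fos stood at 76.4 CPM in control, 685 in Ikk2CA, 217 in Jak2V617F and 67.0 in the double mutant. Nr4a1, a nuclear receptor, was at 2.66, 58.9, 11.7 and 2.002 CPM, and Klf2, a zinc finger factor, at 6.79, 88.6, 27.3 and 10.8 CPM. All 19 measured members were above control in Ikk2CA, with 16 at least 2 times and a median of 2.22. In Jak2V617F 9 were at least 2 times and the median was 0.77, and in the double mutant none was, with a median of −0.19. Against Ikk2CA, 16 of the 19 were at most 0.5 times in the double mutant. The other kept cells showed the same order for Fos, at 53.5, 390, 168 and 54.2 CPM. Each genotype was sorted and loaded as 1 pool, so genotype and handling of the pool cannot be told apart.

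JAK-STAT feedback genes lay near control as a group in the single mutants and mostly below it in the double mutant. In Ikk2CA, Jak2V617F and the double mutant, 7, 11 and 4 of 21 were above control, with medians of −0.15, 0.07 and −0.45. Above the median gene of each comparison stood 11, 12 and 4. Socs2, a cytokine-induced inhibitor of the pathway, stood at 20.7 CPM in control, 23.9 in Ikk2CA, 37.6 in Jak2V617F and 60.4 in the double mutant, so both libraries with the Jak2 allele were highest at full depth. With the rule read at 5000 UMIs it was at 23.9, 43.7, 39.4 and 72.8 CPM, so Ikk2CA stood above Jak2V617F, as it also did with at least 3 markers. Its ratio to control was 1.82 in Jak2V617F (1.57 to 2.12) and 2.92 in the double mutant (2.53 to 3.39). Cish, a second inhibitor of the same family, was at 23.9, 15.8, 33.4 and 18.2 CPM and did not follow that order. Of 21 measured members, none was past 2-fold in Jak2V617F, 1 was lower in Ikk2CA (Pim2, a survival kinase), and in the double mutant Socs2 was higher and Gfi1, a transcriptional repressor, lower. Restricted to cells with no Xist UMI, Socs2 was at 13.7, 22.96, 37.7 and 70.6 CPM and Cish at 15.0, 15.1, 33.5 and 17.6 CPM. Both libraries with the Jak2 allele were then highest for each gene, though Cish in the double mutant was close to control and Ikk2CA. Among those cells 3 of the 21 members were at least 2 times control in Jak2V617F, 1 in Ikk2CA and 1 in the double mutant. At most 0.5 times were 0, 1 and 1.

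Pf4 was among the genes with the highest ratios in both libraries with the Ikk2CA allele. Pf4 (mm10 chr5:90772435-90773383), which encodes platelet factor 4, stood at 179.9 CPM in control, 1907 in Ikk2CA, 235 in Jak2V617F and 1392 in the double mutant. Both libraries with the Ikk2CA allele were far above the others, at 10.6 times control (10.1 to 11.1) and 7.73 times (7.38 to 8.11). After thinning to 5000 UMIs a Pf4 UMI was found in 20.1%, 77.8%, 21.7% and 70.9% of stem cell-like cells. In B-lineage cells, which should lack it, the share was 2.94%, 6.43%, 7.94% and 9.62% (136, 1431, 63 and 52 cells with median depths of 13059, 15416, 8104 and 28484 UMIs). The share in stem cell-like cells of Ikk2CA and the double mutant was thus well above that background. In the other kept cells it was 8.20%, 24.25%, 9.41% and 32.6%, so the 2 libraries with the allele were also highest there. Among cells thinned to 5000 UMIs without the excluded genes, Pf4 was highest with 1 marker in each library, at 198, 1081, 126 and 854 CPM. With 3 or more markers it was at 61.9, 862, 114 and 452 CPM.

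Other megakaryocyte genes were at lower levels. Itgb3, a platelet integrin chain, was at 5.61, 19.1, 10.3 and 17.7 CPM and Treml1, a platelet receptor, at 6.01, 24.2, 7.17 and 10.8 CPM. Vwf, which marks platelet-primed stem cells, was at 11.6, 23.9, 19.4 and 20.2 CPM and was above control in all 3 mutants. The differences were smaller with the rule read at 5000 UMIs, at 13.3, 24.5, 17.4 and 16.7 CPM. Without the cells high in megakaryocyte genes described below, Vwf was at 8.35, 11.9, 12.6 and 9.33 CPM. Of 13 measured megakaryocyte genes, 5 were at least 2 times control in Ikk2CA, 0 in Jak2V617F and 3 in the double mutant, where 1 was at most 0.5 times. Their medians were 0.58, 0.13 and 0.30, and that of the double mutant was −0.09 with the rule read at 5000 UMIs.

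Both the typical cell and the cells richest in these transcripts differed. The 12 megakaryocyte genes summed per cell had a median of 1.05 UMIs per 10000 in control, 7.56 in Ikk2CA, 0.91 in Jak2V617F and 5.77 in the double mutant. Among cells thinned to the lower depth, with 2 markers and none of the excluded genes, their sum was 170.9 CPM in control. It was 1077.4 CPM in Ikk2CA, 203.7 in Jak2V617F and 740.9 in the double mutant. Pf4 made up 73.8, 960.7, 94.9 and 661.2 CPM of it. At that reading the sum was mostly Pf4 in both libraries with the Ikk2CA allele. High in megakaryocyte genes there means mainly high in Pf4, and a broader megakaryocyte programme was not tested. A limit of 10 UMIs per 10000, chosen after the data had been seen, was passed by 35 cells (3.93%), 364 (42.4%), 116 (4.57%) and 366 (36.3%). It cuts a continuous range, and 22, 117, 53 and 107 cells lay near it. Cells above it had median depths of 16215, 15860, 16133 and 25794 UMIs, against 9498, 12792, 9747 and 19844 below it, and whether pairs of cells in 1 droplet are among them was not tested. Hlf in the cells above and below it was at 52.1 and 366 CPM in control and at 82.4 and 166 CPM in Ikk2CA. In the double mutant the pair was 56.7 and 141 CPM. Gata1, an erythroid and megakaryocyte factor, was at 46.9 and 17.85 CPM in control and at 52.2 and 15.5 CPM in Ikk2CA.

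Results were read again without the cells above that limit. Pf4 was then at 51.9, 273, 49.5 and 269 CPM, a log2 ratio of 2.40 in Ikk2CA and 2.38 in the double mutant. The median over the 13 megakaryocyte genes changed sign in Ikk2CA, to −0.48, and in the double mutant, to −0.71, with 3 of 13 above control in each. The 12 genes behind the limit, Pf4 among them, all belong to the megakaryocyte list. The cut took out 42.4% and 36.3% of the cells of those libraries but 3.93% of control. A fall of this list and of Pf4 relative to control was therefore built in. Hlf was at 366, 166, 281 and 141 CPM, with log2 ratios of −1.14 in Ikk2CA and −1.37 in the double mutant, so it was below control among the remaining cells as well. In control and Jak2V617F the 10 richest cells held 57.3% and 32.9% of all Pf4 UMIs of the full population, against 22.2% in Ikk2CA and 15.3% in the double mutant.

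S phase genes were slightly higher in the libraries with the Jak2 allele. Of 25 S phase genes, 23 were above control in Jak2V617F with a median of 0.26, and all 25 in the double mutant with a median of 0.30, whereas 12 were in Ikk2CA with a median of −0.02. Relative to the median gene of the comparison, 21 were above it in Ikk2CA. None of these was past 2-fold in any mutant. At 5000 UMIs per cell, 32.4% of stem cell-like cells in control, 36.9% in Ikk2CA, 47.5% in Jak2V617F and 52.0% in the double mutant had at least 10 UMIs of S phase genes. Of 24 genes of the G2 and M phases, 16 were above control in Ikk2CA, 23 in Jak2V617F and 18 in the double mutant, with medians of 0.09, 0.27 and 0.18. With the rule read at 5000 UMIs those medians were −0.12, 0.61 and −0.21, so at that depth only the median of Jak2V617F was above 0. Among cells with no Xist UMI they were −0.25, 0.02 and −0.10, with 13 of the 24 genes above control in Jak2V617F. The higher level in Jak2V617F was thus nearly absent in those cells. For at least 20 UMIs of G2 and M phase genes the shares were 14.4%, 20.5%, 23.4% and 22.4%. The other kept cells gave higher S phase shares in every library, at 46.2%, 56.8%, 55.6% and 60.9%.

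Oxidative phosphorylation genes were higher in all 3 mutants by small amounts. Uqcrq, a subunit of respiratory complex III, stood at 199.9 CPM in control, 334 in Ikk2CA, 271 in Jak2V617F and 424 in the double mutant. Of 25 members, 23, 23 and 24 were above control in Ikk2CA, Jak2V617F and the double mutant, with medians of 0.44, 0.17 and 0.64. Past 2-fold were 0, 0 and 2 of them. Txnip, a regulator of redox state linked to stem cell quiescence, was lower in both libraries with the Ikk2CA allele, at 377, 177, 372 and 199 CPM. A list of quiescence genes did not follow it in Ikk2CA. Of 19 measured members, 9, 4 and 0 were at least 2 times control in Ikk2CA, Jak2V617F and the double mutant. At most 0.5 times were 1, 0 and 2 of them, and the medians were 0.23, 0.15 and −0.41.

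**Figure D4:**
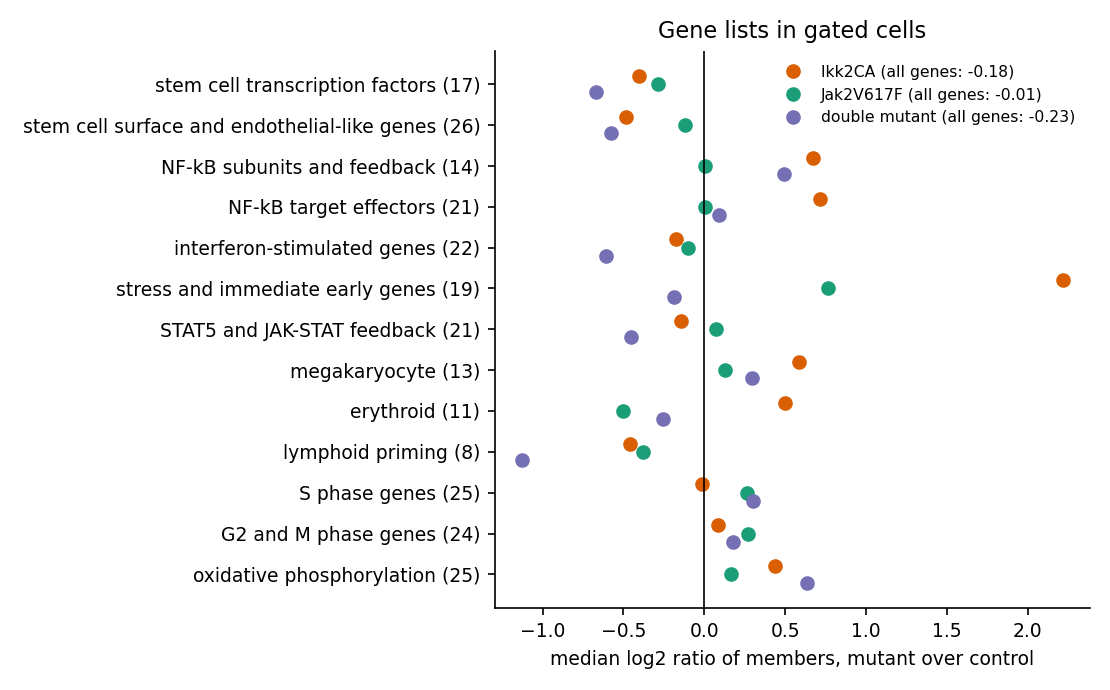
Median log2 ratio over control of the measured members of 13 gene lists (number of members in brackets) for each mutant, in the stem cell-like cells; the legend gives the median over all compared genes. Stress genes in Ikk2CA (2.22) and lymphoid genes in the double mutant (−1.13) lie farthest from 0.

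Genes of other lineages were low but uneven, and a few cells carried some of them. Hbb-bs, the adult β-globin, stood at 7.88 CPM in control, 521 in Ikk2CA, 9.01 in Jak2V617F and 12.2 in the double mutant, and the 10 richest cells held 96.5% of the Ikk2CA UMIs. Its log2 ratio in Ikk2CA was 6.05, and 2.31 without the cells of highest doublet score. Hba-a1, an α-globin that shares near-identical sequence with Hba-a2, had 98.6% of its Ikk2CA UMIs in 10 cells. Car1, a carbonic anhydrase of erythroid progenitors, was at 177, 113, 18.1 and 5.64 CPM, with 91.0% of the control UMIs in 10 cells. S100a8, a neutrophil calcium-binding protein, was at 14.4, 11.01, 59.3 and 87.0 CPM, and its partner S100a9 at 20.8, 12.8, 83.5 and 111 CPM. The 10 richest cells held 89.4% and 96.7% of the S100a8 UMIs in Jak2V617F and the double mutant.

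Several of these ratios turned with the depth at which the rule was read. At 5000 UMIs the log2 ratio over control of S100a8 was −0.86 in Jak2V617F and −1.85 in the double mutant, and that of S100a9 −1.14 and −1.86, against values above 2 at full depth. Car1 in Jak2V617F moved from −3.29 to 0.11. These genes therefore give no stable difference between the stem cell-like cells of the genotypes. Car1 in the double mutant was below control at 5000 UMIs as well, at −4.86. That ratio sets 0.45 CPM, which is very few UMIs, against 13.2 CPM in control. Control had itself fallen far from its level at full depth, which lay mostly in a few cells, so this ratio is not firm either.

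Lymphoid priming and interferon-stimulated genes were lower in the double mutant. Dntt, the terminal transferase of lymphoid progenitors, stood at 25 CPM in control, 11.3 in Ikk2CA, 13.3 in Jak2V617F and 3.56 in the double mutant. With the rule read at 5000 UMIs Dntt was at 33.4, 14.2, 24.0 and 12.7 CPM, so the double mutant was close to Ikk2CA. That reading also takes cells with Flt3, Elane or Cd79a UMIs at full depth, and their part in these levels was not tested. Of 8 measured lymphoid genes, 5 were at most 0.5 times control in the double mutant and 2 in each single mutant. In Ikk2CA 2 more were at least 2 times control, and in Jak2V617F and the double mutant none was. Ifit1, an interferon-induced antiviral gene, was at 22.6, 10.7, 18.6 and 8.05 CPM, and Rsad2, the antiviral enzyme viperin, at 19.5, 11.2, 20.2 and 7.07 CPM. Of 22 measured interferon-stimulated genes, 4 were at most 0.5 times control in the double mutant, 1 in Ikk2CA and 0 in Jak2V617F, with medians of −0.61, −0.17 and −0.10. Of all compared genes 3.39%, 1.79% and 0.348% were as low, and the median gene stood at −0.23, −0.18 and −0.01. Above that median gene were 6, 12 and 9 of the 22, so in Ikk2CA the list lay at the level of all genes.

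The highest and lowest genes of each mutant held some that belong to no list above. In Ikk2CA the lowest ratios were those of Myl10, a myosin light chain at 34.4 CPM against 139.9 in control, and Cxcr4, the niche chemokine receptor at 11.6 against 44.6 CPM. Gt(ROSA)26Sor, the transcript of the locus that carries the Ikk2CA allele, was at 35.1, 13.6, 31.3 and 15.9 CPM and was lowest in the 2 libraries with the allele. In Jak2V617F the highest ratio was that of Nupr1, a stress-response chromatin protein, at 9.45, 14.3, 40.8 and 52.3 CPM in control, Ikk2CA, Jak2V617F and double mutant. Nupr1 was highest in both libraries with the Jak2 allele, with ratios of 4.32 (3.51 to 5.37) and 5.53 (4.49 to 6.88), and at 5000 UMIs its log2 ratios were 2.12 and 2.65. Selp, the adhesion receptor P-selectin, was at 17.4, 10.9, 36.2 and 20.02 CPM and was highest in Jak2V617F.

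Further genes separated the mutants. Histone genes such as Hist1h2ap, at 60.7, 590.3, 254 and 166 CPM, were above control in all 3, but their near-identical copies make the assignment of reads uncertain. Itsn1, an endocytic scaffold, was at 34.2, 12.4, 28.0 and 9.11 CPM, and Alcam, an adhesion molecule of stem cells and their niche, at 33.9, 13.8, 23.3 and 10.4 CPM. Both were lowest in the double mutant and next lowest in Ikk2CA. Insig1, a regulator of cholesterol synthesis, was at 33.4, 28.4, 13.6 and 11.5 CPM and was lowest in the 2 libraries with the Jak2 allele. Myl10 in Jak2V617F, at 69.0 CPM, was below control, but its log2 ratio was 0.42 among cells with no Xist UMI, where control stood at 51.5 CPM.

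**Figure D5:**
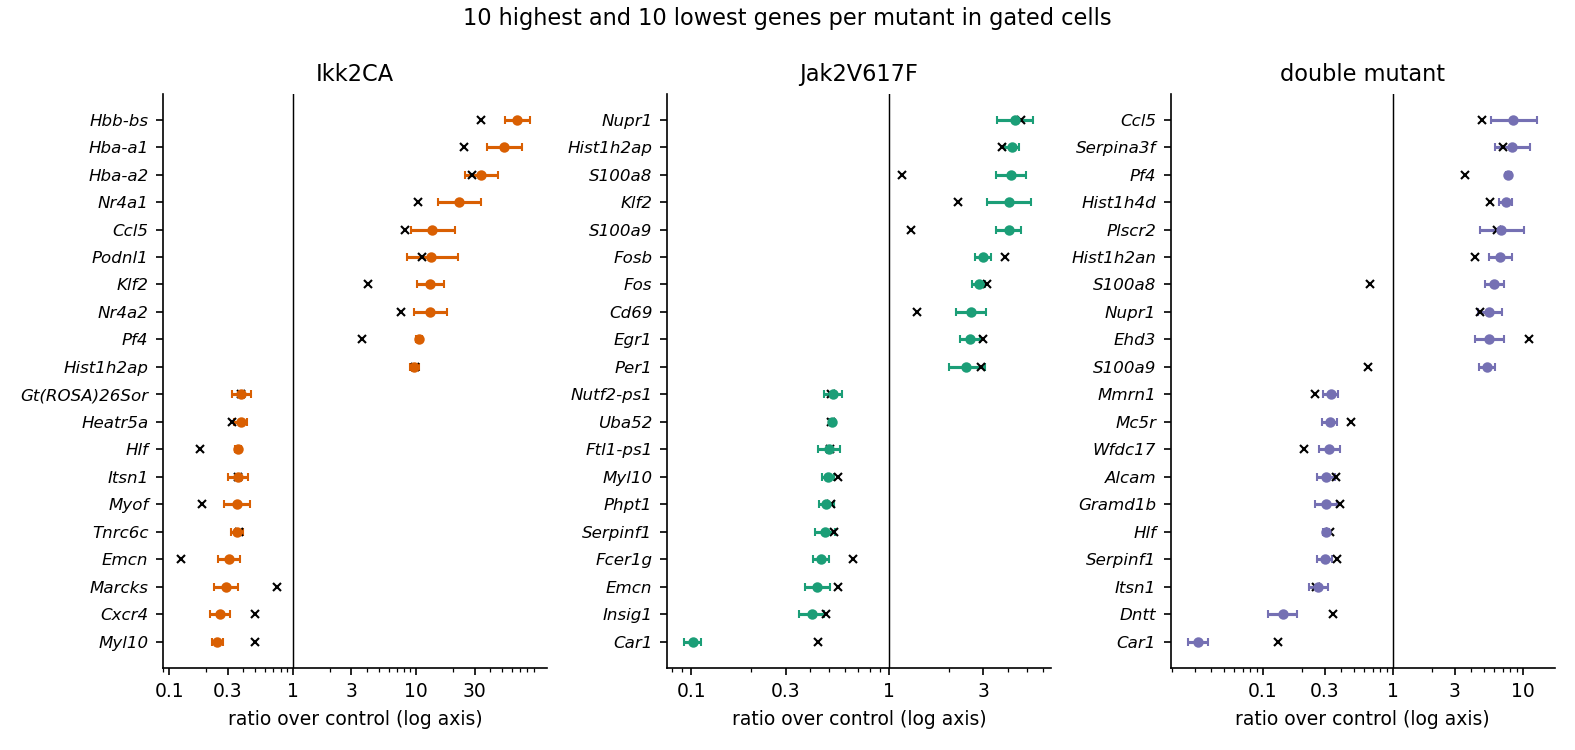
Ratio to control (log axis) of the 10 highest and 10 lowest genes of each mutant in the stem cell-like cells, with 95% counting intervals; crosses give the same ratio in the other kept cells. In the double mutant the points of S100a8 and S100a9 lie above 1 and their crosses below it.

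The double mutant was also compared with each single mutant. Over Jak2V617F its highest ratios were Pf4 at 5.91 times (5.76 to 6.07), Ehd3 at 5.19 (4.45 to 6.09), Relb at 4.92 (4.21 to 5.77), Pdcd1lg2 at 4.18 (3.60 to 4.87) and Rrad, a small GTPase, at 4.13 (3.47 to 4.93). The lowest were Wfdc17, a secreted protease inhibitor, and the immediate early genes Fos, Egr1 and Fosb, with Itsn1. With the rule read at 5000 UMIs the log2 ratio of Wfdc17 over Jak2V617F was −0.46, no longer past 2-fold, and those of Fos, Egr1, Fosb and Itsn1 were −1.249, −1.41, −1.245 and −1.05. Over Ikk2CA, Nupr1 was at 3.66 times (3.15 to 4.27) and Myl10 at 3.59 (3.26 to 3.96). Slfn2, a gene of the schlafen family, was at 2.68 times (2.28 to 3.17). Below Ikk2CA stood the globins, Car1 and Nr4a1, the last at 0.0340 times (0.0250 to 0.0454).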

How the data were processed

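Sorted LSK cells were captured in droplets, 1 library per genotype. The deposited values are counts, whole UMIs per gene and barcode and not normalised, written by Cell Ranger 4.0.0 per the file headers, whereas the series' design text names Cell Ranger 3.0.1. The submitters' processing notes name mm10 and Seurat 4.0.0.

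Barcodes with 500 to 7500 genes and under 10% mitochondrial UMIs were kept, as in the design text, leaving 37344 of 41674. UMIs of the stem cell-like cells were summed per library and scaled to CPM. A gene at 0 UMIs was put at a floor of 3 UMIs per library. Intervals are 95%, exact Poisson for a level, exact conditional binomial for a ratio and Clopper-Pearson for a share, and cover counting error only. With 1 library per genotype no test was made: a model without an interaction would leave 1 residual degree of freedom and was not run. Thinning drew UMIs without replacement. The ratio, its interval and the thinning were tested on simulated data.

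The members and gene lists were chosen with earlier results of these data known. Named genes were the 10 highest and 10 lowest ratios per mutant over control and the 5 highest and 5 lowest of the double mutant over each single mutant, among genes with at least 20 CPM in either sum. Left out were the 8 genes of the rule and sex-linked, mitochondrial, antigen receptor, unnamed and cytosolic ribosomal protein genes. Up to 4 members of each list with the largest ratios were added, and all members of the stem cell, NF-κB subunit and JAK-STAT lists. Lists used members with at least 10 CPM in any sum. Cavin2, Tgm2, Clec1a, Mmrn1 and Vwf were named as the genes that led the ratio over the other kept cells. Other genes named in the text beyond these rules (Gata1 in the cells above and below the megakaryocyte limit, and Cd48 by number of markers) were chosen after their values were seen.

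Scrublet called 0, 208, 1 and 2 kept cells, under 0.5% in 3 of 4 libraries, so it did not work there and its calls were not used. TMM (edgeR 4.0.16) and median-of-ratios (DESeq2 1.42.0) factors were alternative scalings. Other alternatives were the thinned rule, at least 3 markers, no excluded genes, all barcodes, equal weight per cell, and leaving out cells of highest doublet score, shared barcodes or cells with an Xist UMI. Leaving out cells high in megakaryocyte genes was added after seeing the data. Scripts ran under Python 3.11.15 (scanpy 1.11.5, pandas 2.3.3, scipy 1.17.1, numpy 2.4.6) and R 4.3.3.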

Additional observations from a re-analysis of the deposited data

How the results depend on the processing

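Shares of stem cell-like cells moved with the rule. In the order control, Ikk2CA, Jak2V617F and double mutant they were 8.31%, 4.04%, 10.7% and 6.91% at 5000 UMIs, 8.22%, 3.92%, 10.2% and 7.38% with another random draw, and 7.94%, 6.04%, 13.1% and 12.2% at 10000 UMIs. With at least 3 markers they were 3.59%, 2.66%, 6.16% and 7.73%, and with no genes excluded 28.9%, 15.8%, 34.4% and 35.8%. All deposited barcodes gave 9.88% in control, 16.9% in Jak2V617F and 17.9% in the double mutant, and control cells with no Xist UMI gave 9.79%.

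The numbers of genes past 2-fold depended on the minimum level. At 50 CPM they were 81 in Ikk2CA, 18 in Jak2V617F and 77 in the double mutant against control, and 43 and 40 in the double mutant against Ikk2CA and Jak2V617F. With no minimum they were 3780, 3416, 4056, 2728 and 3643 in the same order. The rule at 5000 UMIs gave 243 for the double mutant against control and 158 against Ikk2CA. With at least 3 markers, Jak2V617F gave 165 and the double mutant against Ikk2CA 191. Cells with no Xist UMI gave 606 for the double mutant against control and 273 against Jak2V617F. The cause of these changes was not tested.

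Signs changed in 12 values that had been past 2-fold, or for a list median at least 0.5 from 0. At 5000 UMIs the erythroid list median in Jak2V617F was 0.23 and Car1 there 0.11, S100a8 was −0.86 in Jak2V617F, −1.85 in the double mutant and −1.63 in the double mutant against Ikk2CA, and S100a9 was −1.14, −1.86 and −1.09. With at least 3 markers, S100a8 and S100a9 in Jak2V617F were −0.40 and −0.98. Myl10 in Jak2V617F was 0.42 among cells with no Xist UMI, and the megakaryocyte list median in Ikk2CA was −0.48 without the cells high in megakaryocyte genes, an alternative chosen after seeing the data. A fall of that list was built into this alternative, because it removes cells picked on genes of the list. Medians nearer to 0 turned as well. Of 81 list medians per alternative, 10 changed sign at 5000 UMIs, 8 among cells with no Xist UMI, 8 without the cells high in megakaryocyte genes, 7 with at least 3 markers and 9 under TMM. In the double mutant the megakaryocyte median was −0.09 at 5000 UMIs and −0.71 without the cells high in megakaryocyte genes, the G2 and M phase median −0.21 and −0.19, and the stress median 0.06 at 5000 UMIs. Of 89 named ratios past 2-fold, 9 were no longer past it at 5000 UMIs, 4 with at least 3 markers and 2 under TMM. Other ratios moved by over 1.5 times and kept their direction. Without the cells high in megakaryocyte genes, Ehd3 in the double mutant was 1.62 in place of 2.47 (log2). With at least 3 markers, Emcn in Ikk2CA was −1.09 in place of −1.71 and Klf2 4.97 in place of 3.71. Among cells with no Xist UMI, Serpina3f in the double mutant was 4.08 in place of 3.05, and Selp in Jak2V617F 1.75 in place of 1.06. No paired analysis was possible because each genotype has 1 library. Differences between mice, the difference in Xist between the pools, and an effect of depth on which cells the rule takes limit all comparisons.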
